A study of Mus musculus with 6 samples.

Results

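The genes described here are 9 receptor chains for interleukins and GM-CSF (Il7r, Il2ra, Il2rb, Il2rg, Il4ra, Il9r, Il10ra, Il6ra and Csf2ra) and Socs2, a feedback gene of the same signalling route, chosen by name. All 10 were among the 24015 gene symbols counted by RNA sequencing in 6 libraries of sorted DN3 thymocytes of the mouse, and all 10 passed the filter on low counts that left 12939 genes to test. The sort kept lineage-negative thymus cells without CD4 and CD8, low for CD44 and high for CD25. Of these libraries, 2 were p45-deficient (genotype p45-/-, lacking the long isoforms of Tcf1, the transcription factor encoded by Tcf7), 2 were Tcf1-deficient (Lck-cre+ Tcf1 fl/fl, in which a Cre driven by the T-lineage Lck promoter is used to remove every Tcf1 protein) and 2 were wild-type controls, which the labels do not describe as carrying the Cre or the floxed allele. Age, sex and the number of animals behind a library are not given in the labels. The p-values here thus rest on library-to-library spread that may not include differences between animals.

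Interleukin receptors of the haematopoietin family are assembled from a chain that recognises the cytokine and a chain shared between cytokines. The common gamma chain, encoded by Il2rg, serves the receptors for IL-2, IL-4, IL-7, IL-9, IL-15 and IL-21, and signals with JAK kinases and STAT factors, above all STAT5. In the thymus, IL-7 keeps early T cell precursors alive until they pass beta-selection. Socs2 encodes an SH2-domain protein of the suppressor of cytokine signalling family, which is induced by STAT5 and dampens signals from cytokine and growth hormone receptors.

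Library totals ran from 19640524 to 28107031 counts, and 3 counts in a library stood for 0.11 to 0.145 CPM, that is counts relative to the scaled library size. Tcf7 stood at 2340 and 2414 CPM in p45-deficient libraries, at 979 and 976 CPM in Tcf1-deficient libraries and at 2088 and 1810 CPM in control libraries. Its log2 fold change was −0.995 in Tcf1-deficient against control cells (SE 0.11, adjusted p = 0.0762) and −1.28 against p45-deficient cells (SE 0.11, adjusted p = 0.0031), and the counts do not separate its isoforms, so they do not check the p45 label. Tcf1-deficient replicate 1 stood apart. Summed over 11 mature T cell genes it had 1519 CPM, against 950 CPM in Tcf1-deficient replicate 2, 747 and 781 CPM in p45-deficient libraries and 461 and 748 CPM in control libraries, and none of the 11 passed a test in any comparison. Foxp3, the regulatory T cell factor, had 34.3 CPM in that library and between 1.44 and 2.32 CPM in the other 5, and Cd4 had 372 CPM, against 46.1 to 86.5 CPM. Its sum over 12 genes listed for the DN3 sort and stage was the lowest of the 6, with 5651 CPM, against 6722 to 8583 CPM. That list also holds Cd44, Cd4, Cd8a and Cd8b1, for which the sorted cells were low or negative. Il2ra is on it too, with 923 CPM in Tcf1-deficient replicate 1 and 1991 CPM in replicate 2, so this sum is not separate from the 10 genes. Differences of the 10 genes that rest on this library are given with and without it.

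In p45-deficient cells, 4 of the 10 genes passed edgeR's quasi-likelihood test against control, 2 higher and 2 lower. Socs2 was 5.99-fold higher and Il9r 4.31-fold higher, while Csf2ra was 3.38-fold lower and Il10ra 2.43-fold lower. Over all genes, 2073 of 12939 passed in the same comparison (16.0%), 1096 of them higher (8.47%) and 977 lower (7.55%). With library totals in place of TMM scaling that split was 721 higher and 1281 lower, and the median over all genes was −0.06 rather than 0.05 on the log2 scale. The remaining 6 receptor chains, the IL-7 receptor among them, did not pass. The median log2 fold change of the 10 genes was 0.01, and it was below 0 with each other scaling, between −0.092 and −0.034.

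**Figure D1:**
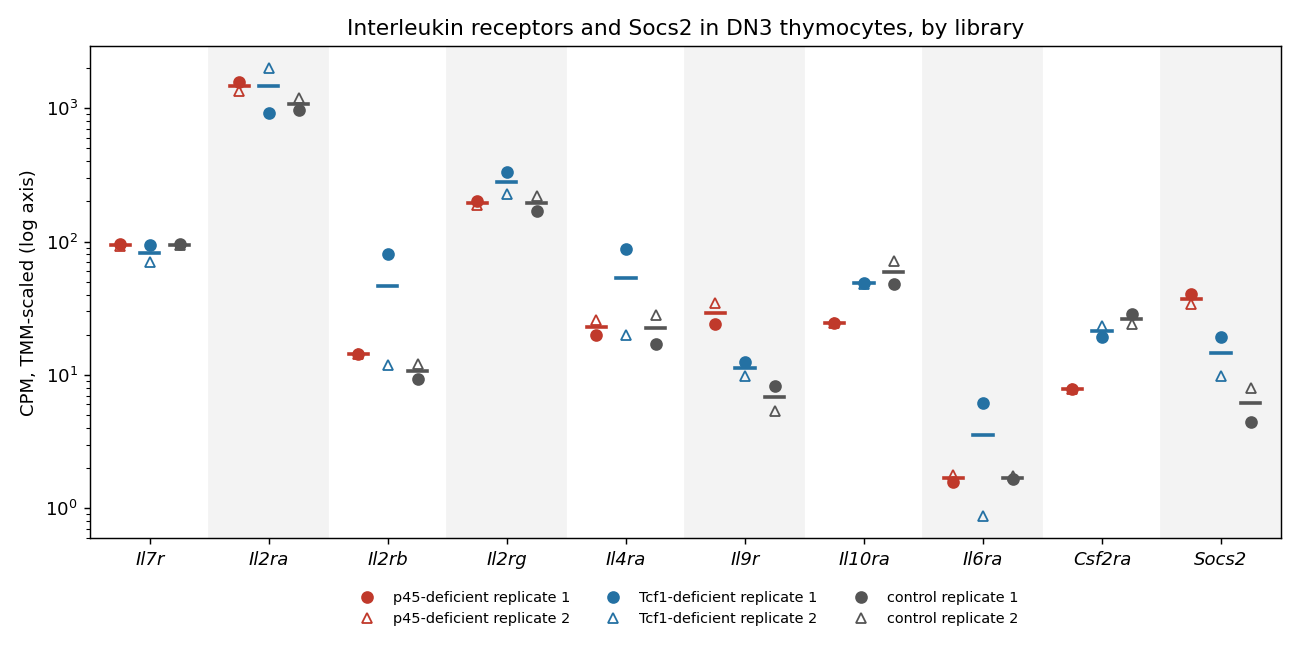
Levels of the 10 genes in each library, in CPM on a log axis. Points are libraries, short lines are group means (n = 2 each), with p45-deficient on the left, Tcf1-deficient in the middle and control on the right. For Il9r and Socs2 the p45-deficient libraries are highest, for Csf2ra and Il10ra they are lowest, and Tcf1-deficient replicate 1 lies far above its partner for Il2rb, Il4ra and Il6ra.

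Of the common gamma chain family Il9r was the member that passed in p45-deficient against control cells. Il9r encodes the chain that binds IL-9, a growth factor of T cells and mast cells. It had 24.1 and 34.5 CPM in p45-deficient libraries, against 8.27 and 5.34 CPM in control libraries. Both p45-deficient libraries lay above both controls, and the log2 fold change was 2.11 (SE 0.30, adjusted p = 0.00658). The call was lost without control replicate 2, where the log2 fold change was 1.77 (adjusted p = 0.0501), and stayed in the other 14 settings tried.

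Il7r, which encodes the alpha chain of the IL-7 receptor and is also part of the TSLP receptor, had 95.6 and 92.4 CPM in p45-deficient libraries and 95.9 and 93.7 CPM in control libraries. The 4 values lay within 4 CPM of each other and the groups overlapped (log2 fold change −0.01, SE 0.15, adjusted p = 0.967). Il2rg, the partner of both Il7r and Il9r, had 200.03 and 187 CPM in p45-deficient libraries and 169 and 219.9 CPM in control libraries, so its controls enclosed the p45-deficient values (log2 fold change −0.01, SE 0.21, adjusted p = 0.99). Il4ra, the IL-4-binding chain, had 20.1 and 25.8 CPM in p45-deficient libraries, against 17.0 and 27.9 CPM in control libraries, again with overlap. Its log2 fold change of 0.03 (SE 0.71) turned negative with each other scaling. That SE draws on all 6 libraries, and it was 0.25 in a fit to only the 2 groups compared.

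Il2ra and Il2rb encode the alpha and beta chains of the IL-2 receptor, the beta chain also serving IL-15. Il2ra protein is CD25, on which the cells were sorted, so its level is part of how the cells were picked. It had 1561 and 1348 CPM in p45-deficient libraries, against 969 and 1197 CPM in control libraries. The groups did not overlap, as was so for 69.3% of all tested genes, and the log2 fold change was 0.43 (SE 0.35, adjusted p = 0.447). That SE draws on all 6 libraries. In an edgeR fit to only the 2 groups compared it was 0.12, and Il2ra just missed the threshold (adjusted p = 0.0514). Without Tcf1-deficient replicate 2, a library of neither group, Il2ra passed with an adjusted p of 0.0352 by edgeR. Il2rb had 14.3 and 14.3 CPM in p45-deficient libraries and 9.38 and 12.1 CPM in control libraries (log2 fold change 0.41, SE 0.88, adjusted p = 0.786). In the edgeR fit to only those 2 groups its SE was 0.19 and its adjusted p 0.198. Of the 10 genes, 6 had groups without overlap in this comparison, the called 4 and these 2 chains.

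Socs2 had 40.7 and 33.8 CPM in p45-deficient libraries, against 4.45 and 7.94 CPM in control libraries. The lower p45-deficient library was more than 4 times the higher control, and the log2 fold change was 2.58 (SE 0.40, adjusted p = 0.0103). It no longer passed without control replicate 1 (log2 fold change 2.18, adjusted p = 0.0706) or without p45-deficient replicate 1 (log2 fold change 2.45, adjusted p = 0.0684).

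Il10ra encodes the chain that binds IL-10, a cytokine that restrains immune responses, and signals with the chain encoded by Il10rb through STAT3. It had 24.4 and 24.5 CPM in p45-deficient libraries, against 47.7 and 71.3 CPM in control libraries. The p45-deficient pair was tight, and both controls lay above it. Il10ra thus had a log2 fold change of −1.28 (SE 0.20) and an adjusted p of 0.00859. Il10ra no longer passed without p45-deficient replicate 1 (adjusted p = 0.0784) and without p45-deficient replicate 2 (adjusted p = 0.0648), at the same log2 fold change of −1.27 and −1.28.

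Csf2ra encodes the chain that binds GM-CSF, a cytokine best known for myeloid cells. It had 7.79 and 7.85 CPM in p45-deficient libraries, against 28.7 and 24.2 CPM in control libraries, with no overlap. Its log2 fold change of −1.76 (SE 0.19, adjusted p = 0.00356) passed the test in all 15 other settings, with adjusted p from 8.4e-13 to 0.0411. Il6ra, the IL-6-binding chain, was the lowest of the 10, with 1.58 and 1.77 CPM in p45-deficient libraries and 1.64 and 1.76 CPM in control libraries.

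Markers of other cells moved beside these changes in part. The 14 myeloid genes found in the files summed to 12 and 16.7 CPM in p45-deficient libraries, against 21.6 and 17.3 CPM in control libraries. Of them 8 were tested, none passed in either direction, and Cd14 and Elane had no count in 5 of 6 libraries. Although the sums were lower, 5 of the 8 had a log2 fold change above 0, and the median was 0.08. The 14 dendritic cell genes summed to 172 and 150 CPM in p45-deficient libraries, against 295 and 209 CPM in control libraries. Of their 11 tested members none passed, 10 had a log2 fold change below 0 and the median was −1.37. The 13 early progenitor genes, which share Flt3 with the dendritic cell list, summed to 23 and 18.6 CPM in p45-deficient libraries, against 102 and 94.5 CPM in control libraries. Among 13 tested, 6 were lower and 1 higher (53.8%, beside 16.0% over all genes). Kit, the stem cell factor receptor shared with mast cells, had 5.55 and 6.65 CPM in p45-deficient libraries, against 53.4 and 54.8 CPM in control libraries. The 8 gamma-delta T cell genes summed to 655 and 584 CPM in p45-deficient libraries, against 259 and 197 CPM in control libraries. Of 7 tested members 3 passed, all higher (42.9%, beside 16.0% over all genes in either direction). In such bulk samples fewer cells of a type and less RNA per cell cannot be told apart. What part these lists have in the 4 called genes was not tested.

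**Figure D2:**
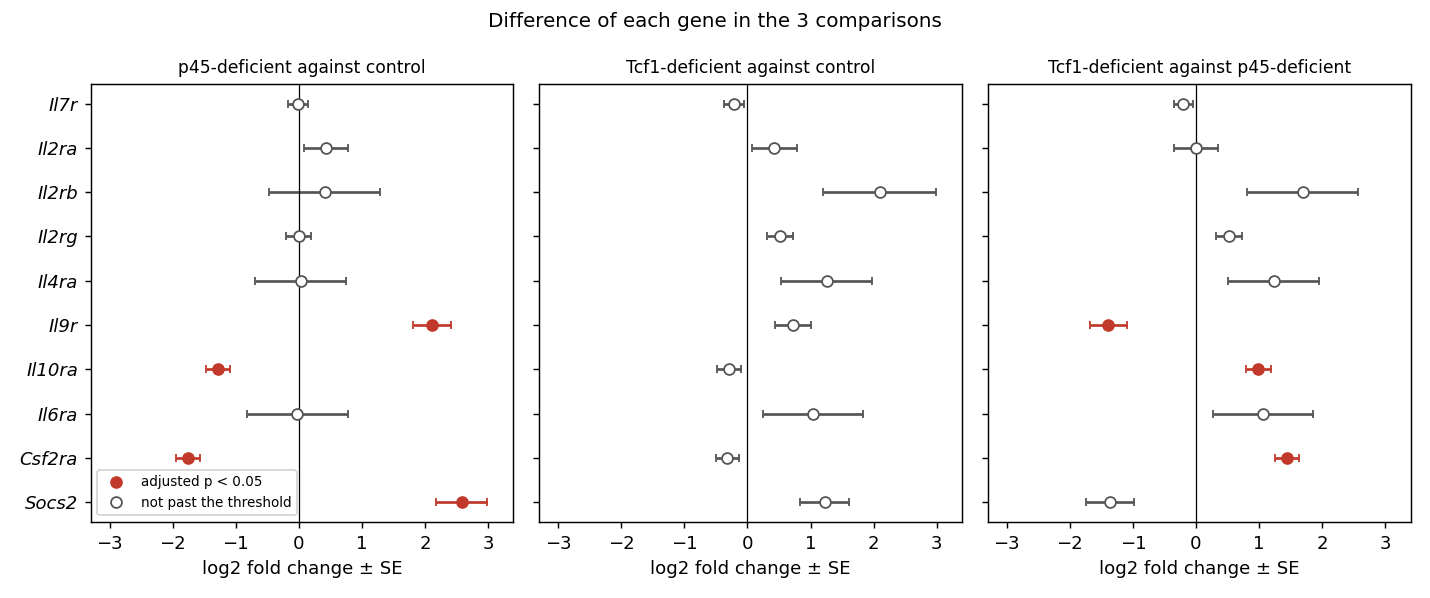
Log2 fold change of each gene with its SE in the 3 comparisons, from edgeR's quasi-likelihood fit over 6 libraries. Filled red points passed an adjusted p of 0.05. Il9r, Socs2, Il10ra and Csf2ra passed in p45-deficient against control, none passed in Tcf1-deficient against control, and Il9r, Il10ra and Csf2ra passed in Tcf1-deficient against p45-deficient, each on the other side of 0.

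Start-site sequence could be set beside the values for 7 of the 10 genes, from RefSeq's mouse table of build GRCm38.p6, which reaches from 250 bases before to 50 bases after a gene's start. The windows of Il9r and Csf2ra are shown because they are the called genes that the table holds, and that of Il7r because it alone of the 7 held a match. Capitals mark TTCNNNGAA, the palindrome that STAT factors such as STAT5 recognise, and would also mark CTTTGA, the core that TCF and LEF factors recognise, searched on both strands. Read 5′ to 3′ on the minus strand, the windows are chr11:32200230-32200529 for Il9r, chr19:61228369-61228668 for Csf2ra and chr15:9529827-9530126 for Il7r.
Il9r: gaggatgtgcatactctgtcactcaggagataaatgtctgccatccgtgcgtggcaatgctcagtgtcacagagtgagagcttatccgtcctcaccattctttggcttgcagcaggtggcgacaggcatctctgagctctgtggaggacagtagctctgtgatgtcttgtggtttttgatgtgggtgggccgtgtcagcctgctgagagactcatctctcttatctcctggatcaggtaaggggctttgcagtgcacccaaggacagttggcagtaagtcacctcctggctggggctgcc
Csf2ra: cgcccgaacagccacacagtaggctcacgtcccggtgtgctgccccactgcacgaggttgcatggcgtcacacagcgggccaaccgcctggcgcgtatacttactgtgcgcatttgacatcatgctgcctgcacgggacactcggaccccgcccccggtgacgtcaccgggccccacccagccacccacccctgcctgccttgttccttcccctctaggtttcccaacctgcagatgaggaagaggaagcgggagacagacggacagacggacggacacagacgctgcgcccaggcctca
Il7r: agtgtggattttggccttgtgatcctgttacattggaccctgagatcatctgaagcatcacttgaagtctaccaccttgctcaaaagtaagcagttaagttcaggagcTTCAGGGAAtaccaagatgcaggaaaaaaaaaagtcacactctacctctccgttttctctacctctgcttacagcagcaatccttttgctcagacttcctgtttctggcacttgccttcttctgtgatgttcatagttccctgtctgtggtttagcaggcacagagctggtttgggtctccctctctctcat
Il7r held 1 TTCNNNGAA, while Il9r and Csf2ra held neither motif, and nor did the windows of Il2ra, Il2rg, Il4ra and Il6ra. Over all 32851 windows of 300 bases in the table, 8.3% held TTCNNNGAA and 16% held CTTTGA. The absence of these letters from so short a window says nothing of binding elsewhere.

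Against control, none of the 10 genes passed in Tcf1-deficient cells by edgeR, and none of the 12939 did (0%). The smallest adjusted p of that comparison was the 0.0762 of Tcf7. At an unadjusted p below 0.05, 3 of the 10 and 1024 of all genes (7.91%) were counted, and DESeq2 called 0 of the 10 and 145 genes in all. Groups without overlap were found for 5 of the 10, beside 34.4% of all genes. The median log2 fold change of the 10 was 0.62, against 0.01 over all genes. Without Tcf1-deficient replicate 1 the median of the 10 was −0.019, and without Tcf1-deficient replicate 2 it was 0.82.

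The 3 genes with an unadjusted p below 0.05 were Socs2, Il2rg and Il9r. Socs2 had 19.4 and 9.74 CPM in Tcf1-deficient libraries, against 4.45 and 7.94 CPM in control libraries, so both lay above both controls (log2 fold change 1.22, SE 0.39, adjusted p = 0.613). Il9r had 12.6 and 9.82 CPM in Tcf1-deficient libraries, against 8.27 and 5.34 CPM in control libraries, also without overlap (log2 fold change 0.72, SE 0.29, adjusted p = 0.618). Il2rg had 331 and 226 CPM in Tcf1-deficient libraries, against 169 and 219.9 CPM in control libraries (log2 fold change 0.52, SE 0.21, adjusted p = 0.618). None of these passed the adjusted test.

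Il2rb, Il4ra and Il6ra were spread widely between the Tcf1-deficient libraries. Il2rb had 80.6 CPM in replicate 1 and 11.8 CPM in replicate 2, against 9.38 and 12.1 CPM in control libraries. Il4ra had 87.4 and 20.02 CPM in Tcf1-deficient replicates 1 and 2, against 17.0 and 27.9 CPM in control libraries. Il6ra had 6.15 and 0.874 CPM in Tcf1-deficient replicates 1 and 2, against 1.64 and 1.76 CPM in control libraries. In each case replicate 1 lay above every other library, and replicate 2 lay within or below the control range. The gap between these replicates was wider than that of 98.4% of tested genes for Il2rb, 96.6% for Il4ra and 98.2% for Il6ra.

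With replicate 2 left out, so that replicate 1 alone stood for Tcf1-deficient cells, edgeR called 5 of the 10 genes higher than control: Il2rb, Il4ra, Il6ra, Il2rg and Socs2. Their log2 fold changes were then 2.89 for Il2rb (adjusted p = 0.000373), 1.95 for Il4ra, 1.84 for Il6ra, 0.76 for Il2rg and 1.63 for Socs2, and 894 genes were called in all (6.59% of those tested in that fit). With replicate 1 left out none of the 10 was called, and the log2 fold changes were 0.13 for Il2rb, −0.17 for Il4ra, −0.96 for Il6ra, 0.22 for Il2rg and 0.64 for Socs2. The wide differences of Il2rb, Il4ra and Il6ra in the means of Tcf1-deficient cells therefore rest on that library, which is also the one with the high mature T cell genes. Il2rb is itself on that list, and without it the other 10 genes summed to 1439 CPM in Tcf1-deficient replicate 1 and 938 CPM in replicate 2, against 451 and 736 CPM in control libraries. What part those genes have in the receptor levels was not tested.

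Il2ra lay the other way between these libraries, with 923 CPM in Tcf1-deficient replicate 1 and 1991 CPM in replicate 2, against 969 and 1197 CPM in control libraries. Il7r had 93.6 and 69.9 CPM in Tcf1-deficient libraries, both below the controls at 95.9 and 93.7 CPM, the first by less than 1 CPM (log2 fold change −0.21, SE 0.15, adjusted p = 0.734). Il10ra had 49.2 and 48.0 CPM in Tcf1-deficient libraries, which overlapped the controls at 47.7 and 71.3 CPM. Csf2ra had 19.2 and 23.3 CPM in Tcf1-deficient libraries, just below the controls at 28.7 and 24.2 CPM (log2 fold change −0.32, SE 0.18, adjusted p = 0.696).

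Set directly against p45-deficient cells, Tcf1-deficient cells had more Csf2ra and Il10ra and less Il9r. These 3 of the 10 genes passed edgeR's test, 2 higher and 1 lower, beside 1348 of all genes (10.4%), 654 higher (5.05%) and 694 lower (5.36%). With library totals the split over all genes was 744 higher and 483 lower. Csf2ra had 19.2 and 23.3 CPM in Tcf1-deficient libraries, against 7.79 and 7.85 CPM in p45-deficient libraries, a 2.71-fold rise (log2 fold change 1.44, SE 0.19, adjusted p = 0.00911). Il10ra, at 49.2 and 48.0 CPM in Tcf1-deficient libraries, was 1.98-fold higher than in p45-deficient libraries, at 24.4 and 24.5 CPM (log2 fold change 0.99, SE 0.19, adjusted p = 0.0256). Il9r was 2.62-fold lower (log2 fold change −1.39, SE 0.29, adjusted p = 0.0292).

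Socs2, at 19.4 and 9.74 CPM in Tcf1-deficient libraries and 40.7 and 33.8 CPM in p45-deficient libraries, missed the threshold (log2 fold change −1.36, SE 0.38, adjusted p = 0.0663). It passed by DESeq2 (adjusted p = 0.00739) and without Tcf1-deficient replicate 1 (log2 fold change −1.88, adjusted p = 0.0156). The 3 called genes each lost the call without either p45-deficient library, with adjusted p from 0.072 for Csf2ra to 0.194 for Il9r. Groups did not overlap for 5 of the 10 genes, beside 61.0% of all tested genes, namely Il2rg and the 4 genes called in p45-deficient against control cells. At an unadjusted p below 0.05, 5 of the 10 were counted, beside 31.1% of all genes. Without Tcf1-deficient replicate 2, 8 of the 10 were called, beside 25.3% of the genes tested in that fit. Without Tcf1-deficient replicate 1, 4 of the 10 were called, beside 10.2%. The same p45-deficient libraries serve both this comparison and the one against control, so the opposite signs of Il9r, Il10ra and Csf2ra are not independent of each other.

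Read in order, Il9r and Socs2 stood highest in p45-deficient, lower in Tcf1-deficient and lowest in control libraries, and Csf2ra stood lowest in p45-deficient, higher in Tcf1-deficient and highest in control libraries. All 3 groups were free of overlap for these 3 genes, with Tcf1-deficient libraries between the others, as was so for 1491 of all tested genes (11.5%). For Il10ra the p45-deficient libraries stood apart below, while Tcf1-deficient and control libraries overlapped. Of the 6 other genes, none had its 3 groups free of overlap in any order.

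**Figure D3:**
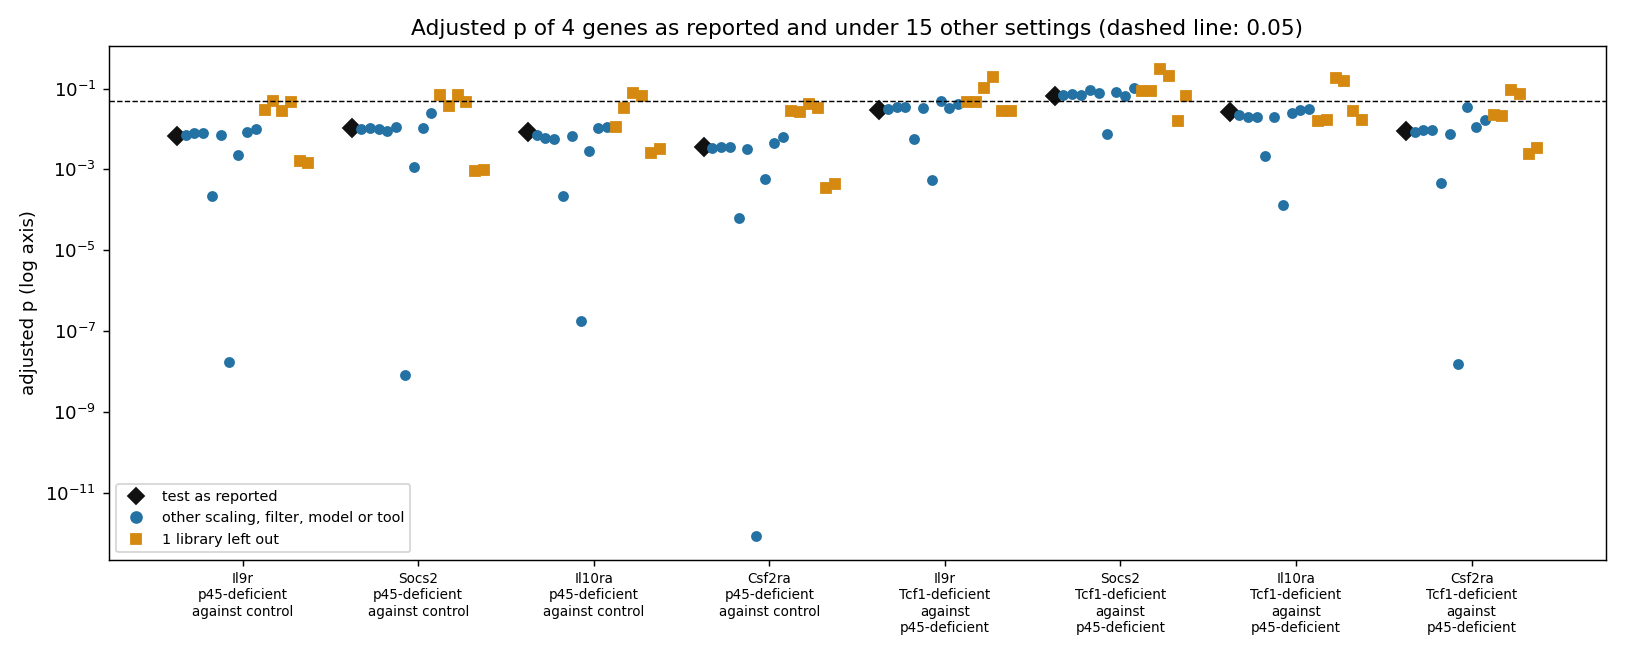
Adjusted p (log axis) of Il9r, Socs2, Il10ra and Csf2ra in 2 comparisons, as reported (diamonds), under other scalings, filters, models and tools (circles) and with 1 library left out (squares). The dashed line is 0.05. Csf2ra in p45-deficient against control lies below the line in every setting shown, with a highest value of 0.0411, while each other gene and comparison has settings on both sides of it, and Socs2 in Tcf1-deficient against p45-deficient lies above it as reported.

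Levels of different genes were set side by side per kilobase of exon, with exon lengths of 12337 of the 12939 tested genes taken from the GENCODE annotation of GRCm38. In control cells, CPM per kilobase was highest for Il2ra, at 190 ± 28.3 (SD, n = 2), above 98.7% of tested genes, followed by Il2rg at 81.4 ± 15.1. Il7r at 20.3 ± 0.341 and Il10ra at 17.0 ± 4.78 came next and their libraries overlapped. Csf2ra followed at 9.22 ± 1.1, then Il4ra at 3.74 ± 1.29 and Il2rb at 2.51 ± 0.455, whose libraries also met. Il9r at 1.38 ± 0.418, Socs2 at 0.65 ± 0.259 and Il6ra at 0.197 ± 0.00917 were the lowest.

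The order shifted in the p45-deficient libraries. Il9r reached 5.92 ± 1.48 CPM per kilobase there, above 47.7% of genes, against 24.6% in control. Socs2 reached 3.91 ± 0.508, above 39.7% of genes, against 17.6% in control. Il10ra, at 7 ± 0.0135, was above 51.7% of genes, against 75.5% in control, and Csf2ra, at 2.72 ± 0.0144, was above 33.5%, against 59.6% in control. Il10ra and Il9r were next to each other in the order of means in p45-deficient cells, where Il9r had 4.88 and 6.97 and Il10ra 6.99 and 7.01 CPM per kilobase in replicates 1 and 2, and Csf2ra stood below Il4ra and Il2rb. Il2ra, Il2rg and Il7r kept the first 3 places, in that order by mean, in p45-deficient, Tcf1-deficient and control cells.

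The partner chains and other receptors were read from a list of 48 genes, of which 37 were tested. In p45-deficient against control cells 1 rose and 5 fell, 16.2% of those tested, close to the 16.0% over all genes, and their median was 0.03 on the log2 scale, against 0.05 over all genes. Epor, the erythropoietin receptor, rose to 3.93 and 2.01 CPM in p45-deficient libraries, against 0.628 and 0.458 CPM in control libraries (adjusted p = 0.0292). Il17re fell to 0.184 and 0.0479 CPM in p45-deficient libraries, against 3.82 and 2.37 CPM in control libraries (adjusted p = 0.00787). In these p45-deficient libraries 3 counts stood for 0.11 and 0.144 CPM, so its level there was near or below 3 counts. Lifr, Il11ra1, Il3ra and Il17ra fell with log2 fold changes of −1.48, −1.47, −0.87 and −0.49. Lifr and Il11ra1 encode chains for ligands of the IL-6 type, Il3ra the IL-3-binding chain and Il17ra the shared chain of IL-17 receptors.

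In Tcf1-deficient against p45-deficient cells 4 of these 37 receptors rose and 1 fell (13.5%, beside 10.4% over all genes). Il17re, Il31ra, Il3ra and Il17ra rose, with log2 fold changes of 4.02, 1.82, 0.94 and 0.60, and Epor fell with −2.47. The value for Il17re rests on p45-deficient levels of 0.184 and 0.0479 CPM, near or below 3 counts. In Tcf1-deficient against control cells edgeR called none of the 37. Counts of called receptors ranged from 0 to 11 in p45-deficient against control cells, and from 0 to 14 in Tcf1-deficient against p45-deficient cells, as each library was left out in turn. The 3 most abundant of the list were Ifngr1, Il17ra and Il17rb, and of these Ifngr1, the interferon-gamma receptor chain, had 287 and 338 CPM in p45-deficient, 348 and 422 CPM in Tcf1-deficient and 286 and 430 CPM in control libraries.

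Beside Csf2ra, the other chain that GM-CSF needs was scarce. Csf2rb, the signalling chain shared with IL-3 and IL-5, had 0.404 and 0.431 CPM in p45-deficient, 1.19 and 0.583 CPM in Tcf1-deficient and 1.06 and 0.649 CPM in control libraries, and its near-identical copy Csf2rb2 was too low to test, so reads of the pair may not be separated. Il3ra, which uses the same chain, had 5.84 and 6.27 CPM in p45-deficient libraries, against 10.8 and 11.4 CPM in control libraries. Both ligand-binding chains were thus lower in p45-deficient cells, Il3ra with an adjusted p of 0.0404. Beside Il10ra, the partner Il10rb had 8.49 and 7.18 CPM in p45-deficient libraries, against 4.98 and 4.85 CPM in control libraries, and did not pass (log2 fold change 0.67, adjusted p = 0.522). Beside Il6ra, its signalling partner Il6st (gp130) had 105 and 98.3 CPM in p45-deficient, 244 and 90.1 CPM in Tcf1-deficient and 105 and 116 CPM in control libraries.

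**Figure D4:**
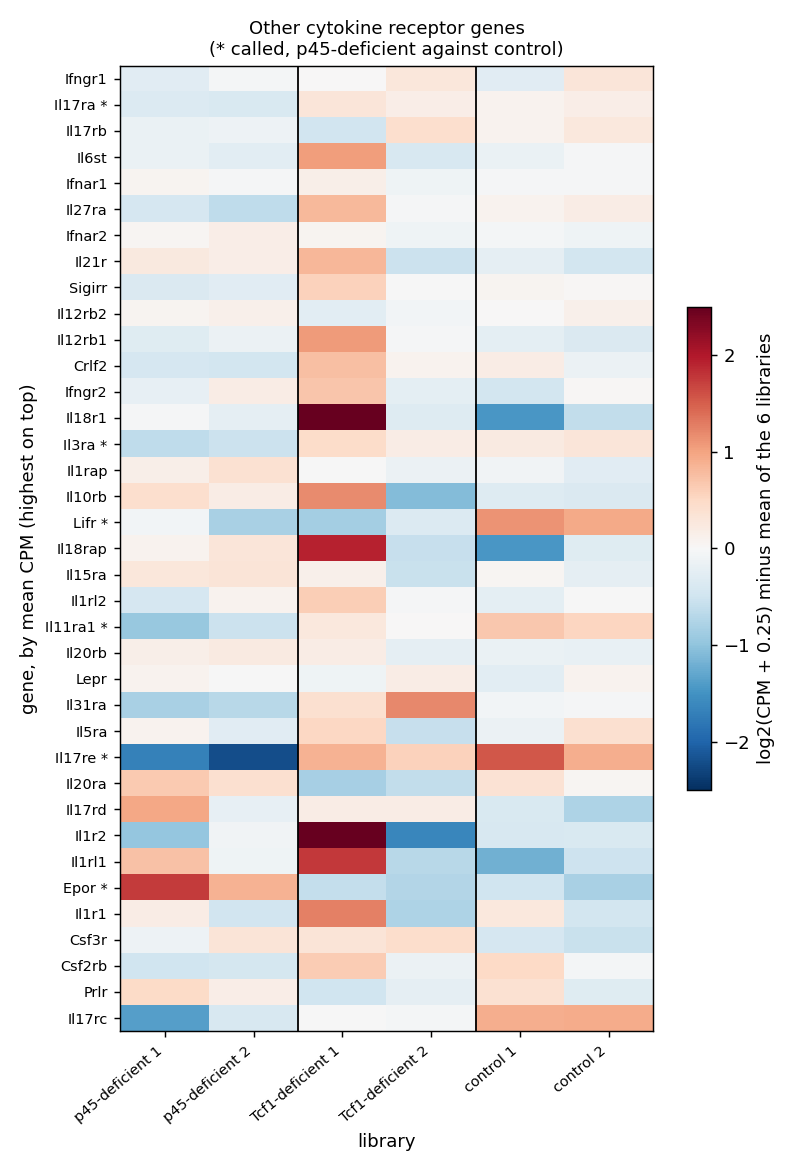
The 37 other tested cytokine receptor genes by library, as log2(CPM + 0.25) minus the mean of the 6 libraries, with p45-deficient libraries left, Tcf1-deficient in the middle and control right. The colour scale is clipped at both ends, and asterisks mark the 6 genes called in p45-deficient against control. Tcf1-deficient replicate 1 is above its partner for most genes, among them Il18r1, Il18rap and Il1r2.

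Ligand genes of these receptors were nearly silent. Of 11 listed, 2 were tested, and Il9 and Il6 had no count in any library, while Il7 had counts in 1 library. Il10 rose in p45-deficient libraries, at 6.51 and 2.63 CPM, against 0.193 and 0.573 CPM in control libraries (log2 fold change 3.53, SE 0.82, adjusted p = 0.0302). It had 2.95 and 0.957 CPM in Tcf1-deficient libraries. The ligand gene and its receptor chain Il10ra thus differed from control in opposite directions in p45-deficient cells. That call of Il10 held in 2 of 6 fits that omitted 1 library.

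Socs2 was set beside the rest of its family, Cish and Socs1 to Socs7. None of the other 7 genes passed edgeR's test in any comparison, and in p45-deficient against control cells their median log2 fold change was −0.36. With a library left out up to 2 of them were called in that comparison, both lower. Socs1, Socs3 and Socs7 were the most abundant. Socs1 had 104 and 91.5 CPM in p45-deficient, 140 and 127 CPM in Tcf1-deficient and 118 and 194 CPM in control libraries. Cish, like Socs2 a STAT5-induced feedback gene, had 35 and 24 CPM in p45-deficient libraries, against 24.7 and 78.6 CPM in control libraries, with a wide gap between controls. The gap between the control libraries of Socs2 itself was wider than that of 92% of tested genes.

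Of 11 JAK and STAT genes, 1 fell in p45-deficient against control cells (9.09%, beside 16.0% over all genes). It was Stat5a, at 164 and 174 CPM in p45-deficient libraries, against 251 and 243 CPM in control libraries (log2 fold change −0.55, SE 0.11, adjusted p = 0.0185). That call of Stat5a held in 2 of 6 fits that omitted 1 library. Jak1 and Stat5b, among the most abundant of the list, did not pass. In Tcf1-deficient against p45-deficient cells Jak3, the kinase that binds the common gamma chain, and Stat4 were higher (18.2%, beside 10.4% over all genes). Their log2 fold changes were 1.06 and 0.87, and none of the 11 passed in Tcf1-deficient against control cells. Jak3 had 135 and 78.7 CPM in Tcf1-deficient libraries, against 51.4 and 51.2 CPM in p45-deficient libraries, and it no longer passed in 4 of 6 fits that omitted 1 library. Omitting each library gave 0 to 7 called JAK and STAT genes in p45-deficient against control cells and 0 to 8 in Tcf1-deficient against p45-deficient cells.

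Of 14 genes listed as other negative regulators of this pathway, 1 rose and 2 fell in p45-deficient against control cells (21.4%, beside 16.0% over all genes). Sh2b1 and Sh2b3 fell with log2 fold changes of −0.69 and −0.59, and Pias2 rose with 0.45. Sh2b3 (Lnk) is an adaptor that restrains cytokine signals, whereas Sh2b1, although on the list, is an adaptor best known for promoting JAK2 activity. In Tcf1-deficient against p45-deficient cells Sh2b1 rose with 0.81 and Pias2 fell with −0.51 (14.3%, beside 10.4% over all genes). None of these passed in Tcf1-deficient against control cells. Ptprc, Cbl and Ptpn6, the most abundant, did not pass in any of the 3. Omitting each library gave 0 to 6 called genes in p45-deficient against control cells and 0 to 3 in Tcf1-deficient against p45-deficient cells.

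Of 16 genes known to respond to STAT5, 1 passed in p45-deficient against control cells (6.25%, beside 16.0% over all genes), and it was lower. Ccnd2, which encodes cyclin D2, fell to 237 and 187 CPM in p45-deficient libraries, against 390 and 518 CPM in control libraries (log2 fold change −1.10, SE 0.18, adjusted p = 0.0105). In Tcf1-deficient libraries it had 529 and 469 CPM and was higher than in p45-deficient libraries (log2 fold change 1.24, SE 0.18, adjusted p = 0.012). The list's median log2 fold change in p45-deficient against control cells was 0.05, the same as over all genes, and 8 of the 16 were above 0. Gzmb was among these 8, at 24.4 and 22.1 CPM in p45-deficient libraries, against 2.13 and 3.24 CPM in control libraries. It did not pass (log2 fold change 3.10, SE 1.33, adjusted p = 0.185). Cish, Socs1 and Socs3 are also in the SOCS family list, so these lists are not separate. Bcl2, the survival gene downstream of IL-7, had 164 and 179 CPM in p45-deficient libraries, against 150 and 240 CPM in control libraries. Mcl1 and Myc, among the most abundant of the list, did not pass either. Omitting each library gave 0 to 4 called genes against control and 0 to 5 in Tcf1-deficient against p45-deficient cells, and Ccnd2 held against control in 3 of 6 such fits.

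Genes whose levels followed these receptors most closely over the 6 libraries were found by the root mean square difference of centred log2 CPM, among 9809 genes with a mean of at least 5 CPM. The values describe 6 libraries of similar depth and carry no test. For Socs2 the closest was Frmd4b, at a difference of 0.151, with 20.7 and 19 CPM in p45-deficient, 9.94 and 6.16 CPM in Tcf1-deficient and 2.08 and 3.66 CPM in control libraries. Drc1 and Ndrg2 followed at 0.341 and 0.342. For Il9r the closest were Lgalsl, Colq and Zfp365, at 0.241, 0.255 and 0.27.

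The receptors that were high in Tcf1-deficient replicate 1 had other neighbours. For Il2rb the closest genes were Tnfrsf4, at 0.145, Fam129a, at 0.198, and Tnfrsf9, at 0.2. Tnfrsf4 and Tnfrsf9 encode the costimulatory receptors OX40 and 4-1BB of activated and regulatory T cells. Tnfrsf4 had 27.8 CPM in Tcf1-deficient replicate 1 and 2.27 to 4.19 CPM in the other 5 libraries. For Il6ra the closest was Relb, an NF-kappaB subunit gene, at 0.0798, with 28 CPM in that library and 4.87 to 8.82 CPM in the others, followed by Zc3h12d and Oas2.

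**Figure D5:**
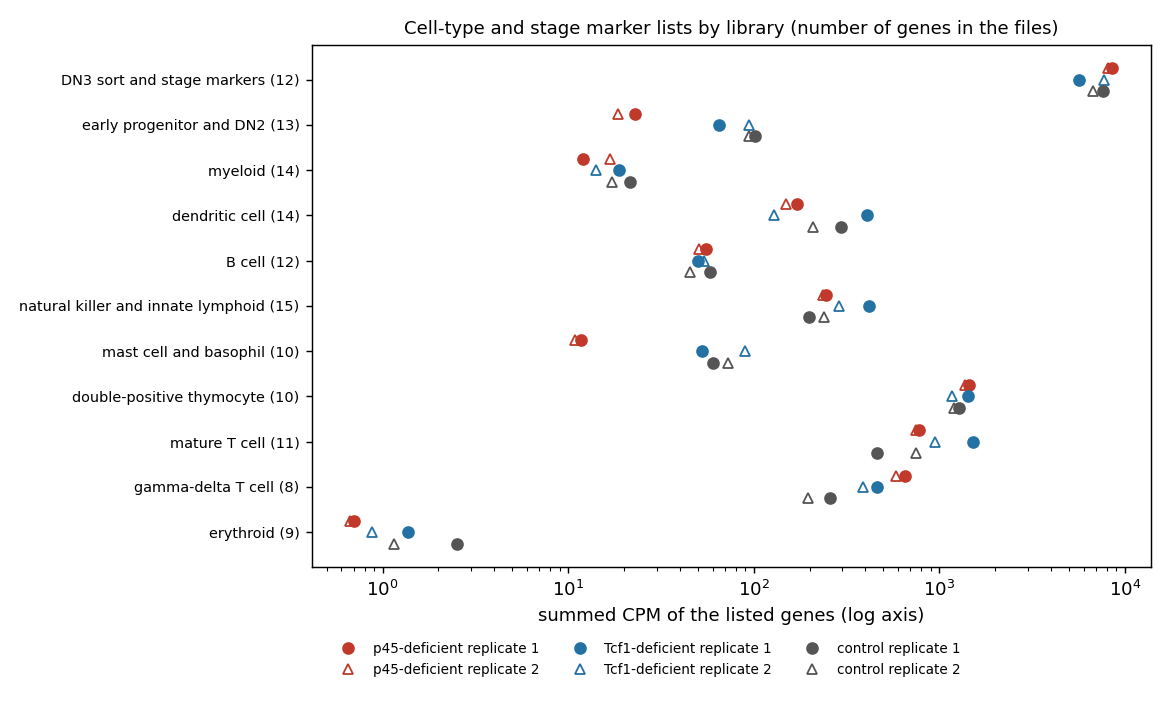
Summed CPM (log axis) of each marker list by library, with p45-deficient libraries above, Tcf1-deficient in the middle and control below in each row. Tcf1-deficient replicate 1 is highest for the mature T cell list (1519 CPM), the natural killer and innate lymphoid list (418 CPM) and the dendritic cell list (406 CPM). The early progenitor list and the mast cell list, which share Kit and Gata2, are lowest in the p45-deficient libraries. The dendritic cell list shares Flt3 with the early progenitor list and Ccr7 with the mature T cell list.

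The sorted identity of the cells was read from the list of 12 stage genes. Rag1, the recombinase gene, had 1621 and 1539 CPM in p45-deficient, 458 and 801 CPM in Tcf1-deficient and 1255 and 951 CPM in control libraries. Ptcra, the pre-TCR alpha chain, had 299 and 258 CPM in p45-deficient, 97.3 and 153 CPM in Tcf1-deficient and 186 and 180 CPM in control libraries. Cd44, on which the cells were sorted as low, had 41 CPM in Tcf1-deficient replicate 1 and 4.7 to 7.94 CPM in the other 5 libraries. Markers of DN3 cells were thus present in all libraries, and Tcf1-deficient replicate 1 had the lowest Rag1, Ptcra and Il2ra of the 6.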

How the data were processed

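The 6 RNA libraries of DN3 thymocytes, 2 per genotype, were grouped by their titles. What the authors deposited are raw counts of reads for each gene symbol. TopHat2, featureCounts 1.5.0-p3, DESeq2 3.4 and build mm9 are named per the submitters' processing notes. Annotation and strand setting: not given in the sources used here. Overlapping or antisense genes may therefore share reads. In GENCODE, Il4ra, Il6ra and Il10ra overlap a gene on the other strand. Il2ra, Il2rg and Il10ra overlap a gene on the same strand, which for Il2rg is protein-coding. Promoter sequences are RefSeq's (GRCm38.p6) and exon lengths GENCODE's (GRCm38).

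The main test was edgeR 4.0.16 (R 4.3.3) with filterByExpr, TMM scaling, 1 mean per group over all 6 libraries, robust quasi-likelihood dispersions (3 residual degrees of freedom), two-sided F tests and Benjamini-Hochberg adjustment over all 12939 genes at 0.05. SEs were taken from the F statistic. With 2 libraries against 2 an exact permutation test of 1 gene cannot go below p = 0.333 and was not used. DESeq2 1.42.0, other scalings, filters and omissions of libraries were tried as alternatives. Floors and depths cover counting error only.

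The genes and lists were chosen with earlier results of these data known. Named genes are the 10 genes, the called members of each pathway list (at most 6), the 3 most abundant of each list, and the 3 genes closest to each of the 4 genes of widest range. Partner chains and marker genes named beyond this were chosen after their values were seen. Protein sequences were not used here, and 1 gene that this rule names is not reported here.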

Additional observations from a re-analysis of the deposited data

How the results depend on the processing

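Over 30 results (10 genes in 3 comparisons) and 15 alternatives each, 403 of 450 values kept their direction and their side of the threshold, 11 lost a call, 12 gained one and 24 changed sign. None of the 24 was a result that had passed, but Il2ra in Tcf1-deficient against p45-deficient cells passed at −0.67 without Tcf1-deficient replicate 2. In p45-deficient against control cells the called genes of the 10 stayed at 4 in the 8 alternatives that keep all libraries and in the fit to only those groups, and ranged from 2 to 5 when a library was left out. The range was 0 to 5 in Tcf1-deficient against control and 0 to 8 in Tcf1-deficient against p45-deficient cells. Over all genes the ranges were 258 to 3923, 0 to 894 and 105 to 3437 in the same order. A fit to only the groups compared called 3907 genes in p45-deficient against control and 488 in Tcf1-deficient against p45-deficient cells. DESeq2 called 2551 in Tcf1-deficient against p45-deficient cells and 145 in Tcf1-deficient against control cells, where no filter gave 33. A replicate block called 1613, 0 and 920 genes, and 4, 0 and 3 of the 10, so it changed no call among the 10 genes. Deviations of same-numbered libraries from their group means had correlations of −0.0286, −0.0141 and −0.0504 between groups. Each group gives only a single difference between replicates, so these values cannot show whether same-numbered libraries were collected or prepared together.

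Sign changes lay close to 0 or rested on single libraries. In p45-deficient against control cells the log2 fold change of Il4ra was −0.018 with size factors of the RLE kind, −0.076 with library totals, −0.045 with upper-quartile scaling, −0.028 with no filter, −0.030 with at least 1 CPM in 2 libraries, −0.014 by DESeq2 and −0.025 with only those groups. With a library left out it ran from −0.34 to 0.38, Il7r from −0.085 to 0.017, Il2rg from −0.23 to 0.14 and Il6ra from −0.12 to 0.064. In Tcf1-deficient against control cells the ranges were −0.24 to 0.88 for Il2ra, −0.17 to 1.95 for Il4ra, −0.55 to 0.023 for Il10ra and −0.96 to 1.84 for Il6ra. In Tcf1-deficient against p45-deficient cells they were −0.67 to 0.51 for Il2ra, which was −0.087 with the replicate block, −0.23 to 2.48 for Il2rb, −0.14 to 1.92 for Il4ra and −0.88 to 1.86 for Il6ra. Of 22 calls in the pathway lists, none held in all 6 omissions and 6 held in at least 4. Where a group keeps 1 library, that library is assumed to vary like the other groups. The causes were not tested.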

Other observations

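With 2 libraries in a group, no library could be tested as an outlier in its group. The widest gaps between replicates among the 10 genes were in Tcf1-deficient cells, at 6.8-fold for Il2rb, 6.51-fold for Il6ra and 4.35-fold for Il4ra. In p45-deficient cells the gaps were small, at 1.00-fold for Il2rb and Il10ra and 1.01-fold for Csf2ra, and the widest was 1.43-fold for Il9r.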
